A study of Danio rerio with 6 samples.

Results

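Clotting and complement are enzyme cascades of blood plasma that act at wounds and against microbes, and most of their proteins are made by the liver. In clotting, tissue factor starts a chain of proteases that ends with thrombin, which turns fibrinogen into fibrin; plasmin dissolves the clot. In complement, the classical, lectin and alternative routes all cleave C3 and then assemble C5b to C9 into a pore in a target membrane. The transcripts of these genes were compared between zebrafish larvae kept in DAPT and in its solvent DMSO. Of 46 genes listed, 43 were present in the expression table with a summed count of at least 10, out of 25920 genes in all. They comprise 18 coagulation and 25 complement genes; f13b, procb and c1s were not analysed here. Members were matched by gene symbol, and the list itself was drawn up with earlier results of these data known.

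The fish carried Tg(myl7:mCherry), in which a heart muscle promoter drives a red fluorescent protein, in treated fish and controls alike. Exposure began at 60 hours post fertilization (hpf), and RNA was taken at 96 hpf from 3 libraries with DMSO and 3 with 100 µM DAPT, a gamma-secretase inhibitor that blocks the release of the active part of Notch. The number of fish per library, and whether replicates were separate clutches, are not given in the sources used here. A p-value here therefore reflects library-to-library spread, possibly technical only. The tissue label is hearts, whereas the text on the design speaks of embryos. Markers of heart muscle were present, with a summed level of 4276 to 5414 CPM (each count scaled to a common library total, with TMM factors) with DMSO and 8547 to 8927 CPM with DAPT. So were genes listed as markers of hepatocytes, the main liver cells, at 9093 to 10639 and 6124 to 6421 CPM. Much of that sum came from apolipoprotein genes: apoa1b, apoa2, apoa1a and apobb.1 averaged 3011, 1515, 1102 and 1086 CPM with DMSO. The marker fabp10a averaged 67.1 CPM with DMSO. Whether all these transcripts came from hepatocytes was not tested, so the sum is not a measure of liver cells. With such transcripts present, the values below are not those of heart tissue alone. Libraries held 20542549 to 21808613 counts.

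Log2 fold changes are DAPT minus DMSO ± standard error, from edgeR's quasi-likelihood test with Benjamini-Hochberg adjustment over the 22092 genes tested; a gene rose or fell where adjusted p was under 0.05. Values per library are listed in the order of replicates 1, 2 and 3. Of the 43 members 41 were tested, and f9a and c1r were too low. Of the 17 coagulation genes tested 1 rose, 9 fell and 7 did not pass, which is 58.8% called against 46.6% of all genes tested. In all genes 22.4% were higher and 24.3% lower with DAPT, that is 4940 and 5362 genes, or 3362 and 6973 when scaled by library totals alone, where the median over all genes stood at -0.10 on the log2 scale. Of the 24 complement genes tested 5 rose, 14 fell and 5 did not pass, or 79.2% called. The median log2 fold change was -0.23 for coagulation genes, -0.45 for complement genes and -0.00 for all genes. On CPM the groups did not overlap in 11 of 17 coagulation and 20 of 24 complement genes, against 56.8% of all genes tested. The 20 include c1qb, which did not pass and entered the test through the DMSO libraries only. Falls of at least 2-fold were seen in 3 coagulation and 5 complement genes (5.69% of all genes), and rises of at least 2-fold in 0 and 3 (2.4% of all genes).

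**Figure D1:**
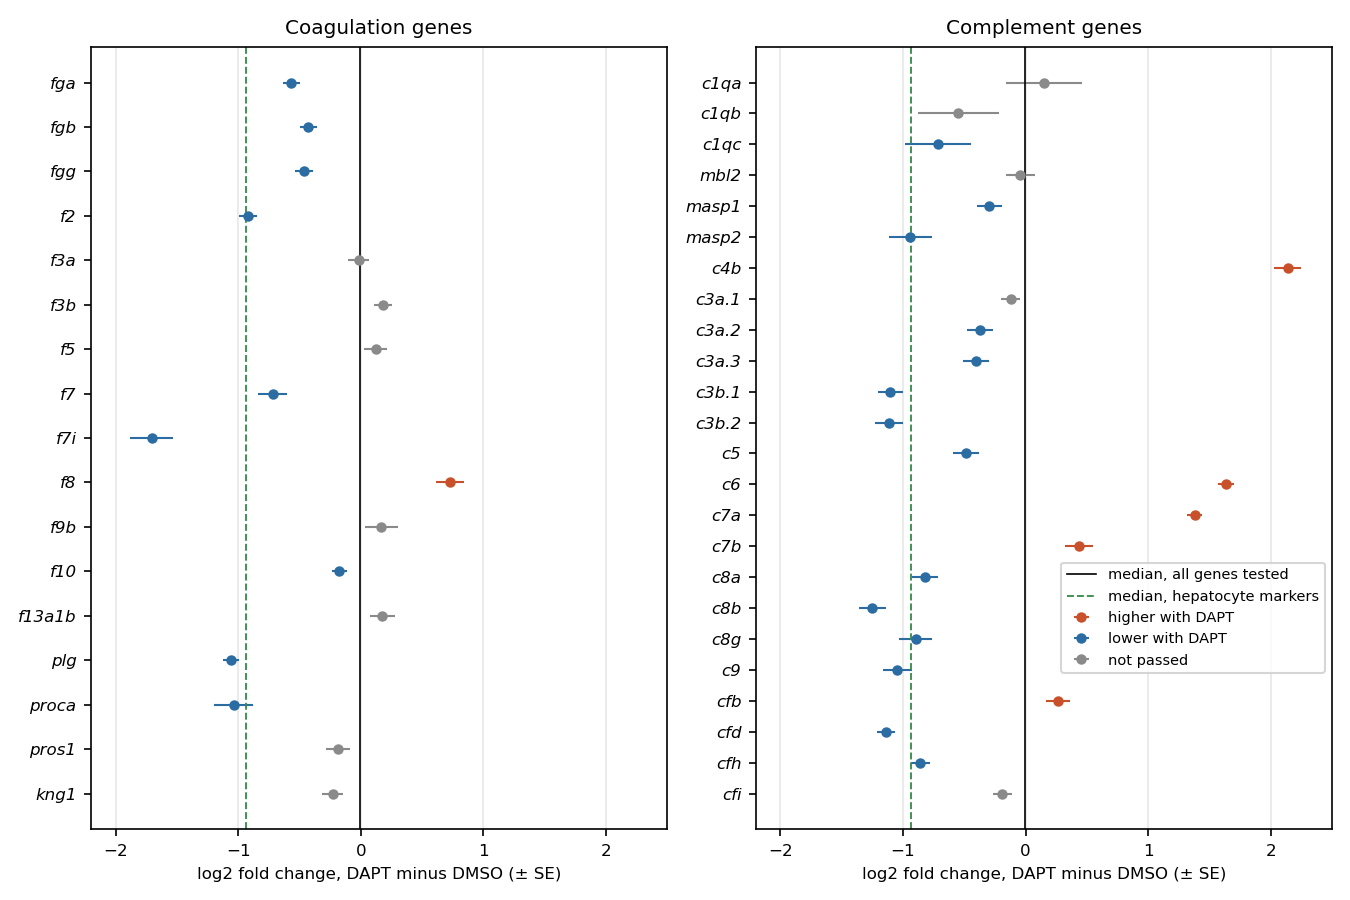
Log2 fold change (DAPT minus DMSO, horizontal axis, ± SE) of the 17 coagulation and 24 complement genes tested, coloured by the edgeR call at an adjusted p of 0.05. The solid line marks the median of all genes and the dashed line the median of the hepatocyte markers (-0.93). The genes called higher are c4b, c6, c7a, c7b and cfb among complement genes, and f8 among coagulation genes.

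All 3 fibrinogen genes fell. They encode the chains of the plasma protein that thrombin converts into the fibrin mesh. The alpha chain gene fga (gene ID 378986) had 109, 111 and 93.2 CPM with DMSO and 70.95, 70.2 and 70.01 CPM with DAPT (log2 fold change -0.57 ± 0.07, adjusted p = 3.27e-05). The beta chain gene fgb had 116, 113 and 95.5 CPM with DMSO and 78.9, 81.4 and 81.4 CPM with DAPT (-0.43 ± 0.07, adjusted p = 0.000455). The gamma chain gene fgg had 84.4, 90.7 and 74.2 CPM with DMSO and 59.4, 62.1 and 59.5 CPM with DAPT (-0.46 ± 0.07, adjusted p = 0.000242). In each of the chains every DAPT library lay below every DMSO library, and DMSO replicate 3 was the lowest of its group. The chains are joined in equal numbers in the protein. On TPM (the authors' values per transcript length and library), fgb stood to fga at 1.48, 1.42 and 1.42 with DMSO and 1.54, 1.61 and 1.61 with DAPT. The ratio of fgg to fga was 1.19, 1.25 and 1.22 with DMSO and 1.28, 1.35 and 1.29 with DAPT. Both ratios were slightly higher in each DAPT library than in any DMSO library.

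Prothrombin and its activator, the steps just before fibrin, both fell but by different amounts. The prothrombin gene f2 had 72.3, 77.1 and 64.8 CPM with DMSO and 36.00, 37.96 and 39.1 CPM with DAPT (-0.92 ± 0.07, adjusted p = 9.62e-07). The gene of factor X, the protease that cleaves prothrombin, had 53.4, 50.9 and 49.3 CPM with DMSO and 43.9, 45.7 and 46.6 CPM with DAPT (-0.17 ± 0.06, adjusted p = 0.0274). On CPM the groups were far apart for f2 and close for f10. On TPM those of f10 lay further apart, at 39.79, 38.83 and 38.44 with DMSO and 29.99, 30.57 and 32.59 with DAPT. The call of f10 was weak: it was lost with DESeq2 (-0.17, adjusted p = 0.0933) and without DMSO replicate 1 (-0.14, adjusted p = 0.103) or DAPT replicates 1, 2 or 3 (adjusted p = 0.119, 0.0674 and 0.0561; 0.00199 to 0.119 in its 12 alternatives).

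Among the upstream proteases, factor VII transcripts fell and those of factor IX did not pass. The gene f7 encodes the protease that tissue factor binds, and had 13.4, 13.5 and 10.6 CPM with DMSO and 7.84, 8.197 and 6.77 CPM with DAPT (-0.72 ± 0.12, adjusted p = 0.000403). Its neighbour f7i, described in zebrafish as a factor VII homologue that inhibits clotting, had the largest fall of the 41 members in this test, from 9.43, 7.08 and 6.07 CPM with DMSO to 2.25, 2.24 and 2.398 CPM with DAPT (-1.71 ± 0.18, adjusted p = 1.11e-05). The ratio of f7i to f7 on TPM was 0.752, 0.561 and 0.615 with DMSO and 0.307, 0.294 and 0.379 with DAPT, so the groups did not overlap. The factor IX gene f9b had 4.98, 5.51 and 4.29 CPM with DMSO and 5.26, 6.197 and 5.13 CPM with DAPT, with overlapping groups (0.17 ± 0.14, adjusted p = 0.341). Its paralogue f9a was at 7, 5 and 6 counts with DMSO and 0, 1 and 1 with DAPT, too low for the test.

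Of the genes for the initiator and the cofactors 1 rose and 3 did not pass. The factor VIII gene f8 (gene ID 100302404), the cofactor of factor IX, rose, with 729, 651 and 489 CPM with DMSO and 1082, 966 and 1048 CPM with DAPT (0.73 ± 0.12, adjusted p = 0.000299). Every DAPT library was above every DMSO library, and the DMSO libraries themselves ranged widely. The counts of f8 were not whole in 5 of 6 libraries, which was taken as reads shared with similar genes. It was the most counted member, and whether its gene model also takes reads of another gene was not tested, so its level and its rise may not be those of factor VIII transcripts alone. In mammals factor VIII is made mainly by endothelial cells; 6 of 9 endothelial markers rose and 0 fell here, their summed level was 433 to 527 CPM with DMSO and 677 to 722 CPM with DAPT, and none was at 0. Their part in the rise was not tested. The gene vwf, chosen after its values were seen, encodes the carrier of factor VIII in plasma and fell (-0.55 ± 0.12, adjusted p = 0.00238). The factor V gene f5, the cofactor of factor X, had 39.04, 39.4 and 30.3 CPM with DMSO and 39.8, 40.9 and 37.5 CPM with DAPT (0.12 ± 0.09, adjusted p = 0.307). Tissue factor, the membrane protein that starts clotting, has a pair of genes. The first, f3a, had 18.6, 17.3 and 20.4 CPM with DMSO and 17.6, 20.3 and 17.96 CPM with DAPT (-0.02 ± 0.09, adjusted p = 0.896). The other, f3b, had 72.9, 72.2 and 66.5 CPM with DMSO and 76.9, 89.4 and 74.1 CPM with DAPT (0.19 ± 0.07, adjusted p = 0.058). For f3b all DAPT libraries were above all DMSO libraries on CPM by a small margin. On TPM its groups overlapped, at 91.2, 92.8 and 88.1 with DMSO and 87.7, 100.3 and 86.3 with DAPT. The gene f3b passed without DAPT replicate 3 (0.24, adjusted p = 0.041, with 0.041 to 0.318 in its 12 alternatives). For f5 and f3a the groups overlapped.

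Of the genes that limit or dissolve clots, plasminogen and protein C fell. The plasminogen gene plg (gene ID 322691) had 84.4, 82.9 and 74.1 CPM with DMSO and 39.01, 37.6 and 39.2 CPM with DAPT (-1.06 ± 0.06, adjusted p = 1.25e-07), and its counts were not whole in 4 libraries. The protein C gene proca, an anticoagulant protease that inactivates factors V and VIII, had 10.2, 10.6 and 7.76 CPM with DMSO and 3.87, 4.34 and 5.69 CPM with DAPT (-1.04 ± 0.16, adjusted p = 0.000235). In both, every DAPT library lay below every DMSO library. The protein S gene pros1, the cofactor of protein C, had 26.6, 26.9 and 21.5 CPM with DMSO and 20.2, 21.9 and 23.9 CPM with DAPT (-0.18 ± 0.10, adjusted p = 0.136), with overlapping groups. On TPM its groups did not overlap, at 17.78, 18.45 and 15.04 with DMSO and 12.41, 13.14 and 14.99 with DAPT. The gene pros1 passed without DMSO replicate 3 (-0.28, adjusted p = 0.00916, with 0.00916 to 0.394 in its 12 alternatives). The kininogen gene kng1, the source of the vasoactive kinins, had 40.00, 42.5 and 32.6 CPM with DMSO and 32.1, 32.3 and 33.8 CPM with DAPT (-0.23 ± 0.09, adjusted p = 0.0504). On CPM DMSO replicate 3 lay among the DAPT values, and without it kng1 passed (-0.34, adjusted p = 0.0006, with 0.0006 to 0.188 in its 12 alternatives). On TPM the groups of kng1 did not overlap, at 58.64, 63.72 and 50.1 with DMSO and 43.07, 42.39 and 45.89 with DAPT. The gene f13a1b, for the transglutaminase that crosslinks fibrin, had 29.9, 34.1 and 25.8 CPM with DMSO and 36.2, 29.8 and 35.4 CPM with DAPT (0.18 ± 0.10, adjusted p = 0.177), and passed without DMSO replicate 2 (0.28, adjusted p = 0.0319; 0.0319 to 0.536 in its 12 alternatives).

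**Figure D2:**
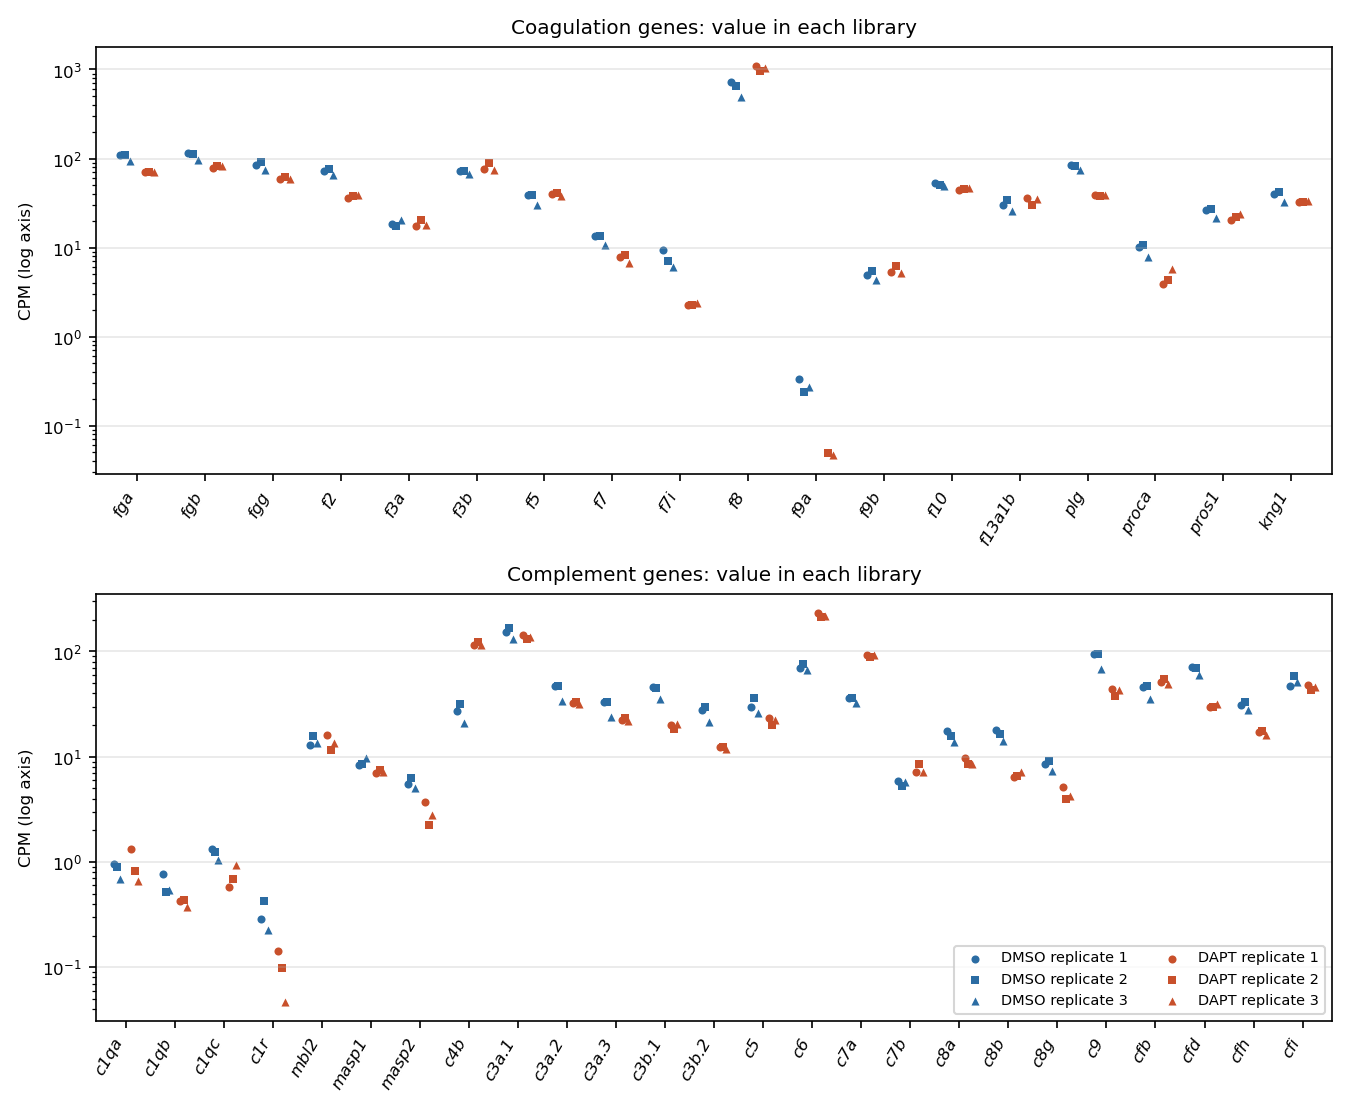
CPM (log axis) of each coagulation gene and each complement gene in each of the 6 libraries, DMSO in blue and DAPT in red, with a marker shape for each replicate number. For f7i the DAPT libraries sit at 2.24 to 2.40 CPM below DMSO libraries at 6.07 to 9.43 CPM, whereas c4b, c6 and c7a show the opposite order; a value of 0 (f9a, DAPT replicate 1) cannot be drawn on this axis.

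A wider list of clotting genes held 25 tested genes, of which 7 rose, 11 fell and 7 did not pass, with a median of -0.09 on the log2 scale. Plasma inhibitors were among the falls: the antithrombin gene serpinc1 (-0.94 ± 0.07, adjusted p = 6.91e-07), the antiplasmin genes serpinf2b (-1.07 ± 0.07, adjusted p = 1.42e-07) and serpinf2a (-1.54 ± 0.15, adjusted p = 7.5e-06), and cpb2, whose product protects fibrin from plasmin (-1.91 ± 0.18, adjusted p = 5.63e-06). The rises included cell surface genes, namely thbd for thrombomodulin, which turns thrombin towards protein C (0.96 ± 0.09, adjusted p = 5.17e-06), and anxa2a for annexin A2, which binds plasminogen at the cell surface (1.22 ± 0.09, adjusted p = 4.09e-07). Counts of serpinc1 were not whole. The gamma-carboxylase gene ggcx, chosen after its values were seen, modifies the vitamin K-dependent factors and had -0.02 ± 0.05 (adjusted p = 0.801). Of 6 tested members taken as that class (f2, f7, f9b, f10, proca and pros1), 4 fell and 2 did not pass, where 24.3% of all genes tested fell. The gene f7i was not counted in that class.

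Among complement genes that start the cascade, the lectin protease genes fell, while most C1q genes were too low for firm values. The gene masp2, for the protease that cleaves C4 after a lectin binds sugar, had 5.45, 6.32 and 5.06 CPM with DMSO and 3.73, 2.24 and 2.77 CPM with DAPT (-0.94 ± 0.18, adjusted p = 0.000969). The related gene masp1, whose protease activates that of masp2, had 8.33, 8.597 and 9.67 CPM with DMSO and 7.08, 7.51 and 7.1 CPM with DAPT (-0.30 ± 0.10, adjusted p = 0.0321). In both the groups did not overlap. The call of masp1 was lost with DESeq2 (-0.29, adjusted p = 0.118), without DMSO replicate 3 (-0.23, adjusted p = 0.103) and without DAPT replicates 1, 2 or 3 (adjusted p = 0.0949, 0.0532 and 0.0948; 0.0101 to 0.118 in its 12 alternatives). The mannose-binding lectin gene mbl2 had 13.01, 15.7 and 13.4 CPM with DMSO and 15.9, 11.5 and 13.5 CPM with DAPT, with overlapping groups (-0.04 ± 0.12, adjusted p = 0.791). C1q recognises bound antibody and in mammals comes mostly from macrophages. The chain gene c1qc had 28, 26 and 23 counts with DMSO and 12, 14 and 20 with DAPT and fell (-0.71 ± 0.27, adjusted p = 0.0452). This call was lost with DESeq2 (-0.71, adjusted p = 0.162) and without DMSO replicate 1 or 2 or DAPT replicate 1 or 2 (adjusted p = 0.133, 0.0908, 0.162 and 0.119; 0.0256 to 0.162 in its 11 alternatives). The gene c1qa had 20, 19 and 15 counts with DMSO and 28, 17 and 14 with DAPT (0.15 ± 0.31, adjusted p = 0.716). The gene c1qb had 16, 11 and 12 counts with DMSO and 9, 9 and 8 with DAPT (-0.55 ± 0.33, adjusted p = 0.195), and it passed the filter on low counts through the DMSO libraries only. The protease gene c1r had 6, 9 and 5 counts with DMSO and 3, 2 and 1 with DAPT and was not tested. Of 10 macrophage markers 0 rose, 3 fell and 7 did not pass, at 251 to 253 CPM summed with DMSO and 237 to 243 CPM with DAPT, none of them at 0 in all libraries. Among those 3 falls cd74a had 14, 10 and 16 counts with DMSO and 3, 4 and 2 with DAPT and cd74b had 28, 32 and 24 counts with DMSO and 5, 2 and 3 with DAPT; both passed the filter on low counts through the DMSO libraries only. The part of macrophages in the C1q values was not tested.

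The central thioester proteins C3 and C4, which attach to a target once cleaved, differed: c4b rose, while 4 of 5 C3 genes fell and 1 did not pass. The C4 gene c4b (gene ID 794635) had the largest rise of all members tested, with 27.2, 31.9 and 21.1 CPM with DMSO and 116, 122 and 115 CPM with DAPT (2.14 ± 0.11, adjusted p = 3.88e-08). All its counts were whole. A separate gene listed as c4, outside the members and chosen after its values were seen, was slightly lower with DAPT (-0.21 ± 0.07, adjusted p = 0.029). The most expressed of them per length, c3a.1, had 153, 165 and 130.4 CPM with DMSO and 144, 132 and 137 CPM with DAPT (-0.12 ± 0.08, adjusted p = 0.228). Its groups overlapped on CPM but not on TPM, at 50.8, 56.16 and 45.24 with DMSO and 43.7, 39.4 and 42.63 with DAPT. The gene c3a.1 passed without DMSO replicate 3 (-0.21, adjusted p = 0.00789) and with library totals alone (-0.22, adjusted p = 0.0253, with 0.00789 to 0.67 in its 12 alternatives). The genes c3a.2 and c3a.3 fell by smaller amounts than the c3b genes. The gene c3a.2 had 46.7, 46.6 and 33.5 CPM with DMSO and 32.7, 33.4 and 31.9 CPM with DAPT (-0.37 ± 0.11, adjusted p = 0.0139), a call lost without DMSO replicate 1 (-0.29, adjusted p = 0.0627) or DAPT replicate 3 (-0.35, adjusted p = 0.0602; 6.92e-06 to 0.0627 in its 12 alternatives). The gene c3a.3 had 32.9, 32.8 and 24.1 CPM with DMSO and 22.5, 23.5 and 21.7 CPM with DAPT (-0.41 ± 0.11, adjusted p = 0.00813). In the c3a genes DMSO replicate 3 was close to the DAPT values. The gene c3b.1 had 45.8, 45.2 and 34.99 CPM with DMSO and 19.98, 18.2 and 20.4 CPM with DAPT (-1.10 ± 0.10, adjusted p = 3.68e-06). The gene c3b.2 had 27.7, 29.9 and 21.4 CPM with DMSO and 12.3, 12.3 and 11.8 CPM with DAPT (-1.12 ± 0.11, adjusted p = 8.56e-06). For both c3b genes each DAPT library was below each DMSO library. Counts of c3a.2, c3a.3, c3b.1 and c3b.2 were not whole in any library and those of c3a.1 in 3 libraries, so reads may be divided among these copies and the single-gene values are uncertain. The TPM ratio of c4b to c3a.1 was 0.165, 0.1798 and 0.151 with DMSO and 0.754, 0.861 and 0.781 with DAPT.

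The terminal genes, whose proteins join in turn to form the membrane attack complex, split by position: C6 and C7 genes rose and C5, C8 and C9 genes fell. All 8 passed. The C5 gene c5, the source of the inflammatory fragment C5a, had 29.8, 35.8 and 25.95 CPM with DMSO and 23.2, 20.01 and 22.2 CPM with DAPT (-0.48 ± 0.11, adjusted p = 0.00279). The C6 gene c6 (gene ID 393611) had 69.6, 76.5 and 66.3 CPM with DMSO and 230.0, 213 and 216 CPM with DAPT (1.63 ± 0.07, adjusted p = 4.9e-09). The C7 gene c7a had 36.1, 36.4 and 32.2 CPM with DMSO and 91.7, 87.9 and 92.4 CPM with DAPT (1.38 ± 0.06, adjusted p = 1.33e-08). For both, the DAPT values lay close together, above every DMSO value. The second C7 gene, c7b, had 5.89, 5.32 and 5.75 CPM with DMSO and 7.17, 8.54 and 7.24 CPM with DAPT (0.44 ± 0.12, adjusted p = 0.00813). By contrast, the C8 genes, which encode the chains of one component, all fell. The gene c8a had 17.5, 15.9 and 13.9 CPM with DMSO and 9.75, 8.44 and 8.51 CPM with DAPT (-0.82 ± 0.11, adjusted p = 5.84e-05). The gene c8b had 17.9, 16.3 and 13.96 CPM with DMSO and 6.41, 6.54 and 7.24 CPM with DAPT (-1.25 ± 0.11, adjusted p = 2.79e-06). The gene c8g had 8.61, 9.12 and 7.34 CPM with DMSO and 5.16, 4.001 and 4.28 CPM with DAPT (-0.90 ± 0.13, adjusted p = 0.00017). The C9 gene c9, which makes up the ring of the pore, had 95.6, 95.6 and 67.5 CPM with DMSO and 43.9, 38.1 and 43.02 CPM with DAPT (-1.05 ± 0.12, adjusted p = 1.84e-05). In all 8 genes the groups did not overlap, against 56.8% of all genes. On TPM c6 stood to c9 at 0.501, 0.552 and 0.675 with DMSO and 3.61, 3.84 and 3.47 with DAPT. The C9 transcript was thus the most abundant terminal transcript per length in each DMSO library, and the C6 transcript in each DAPT library. Counts of c6 and c8b were not whole in any library, so reads may be shared with similar genes and their single-gene values are uncertain. In the RefSeq table of assembly GRCz12tu the gene ID of c6 carries the symbol c6.2. In humans C7 is also made by stromal and endothelial cells outside the liver.

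**Figure D3:**
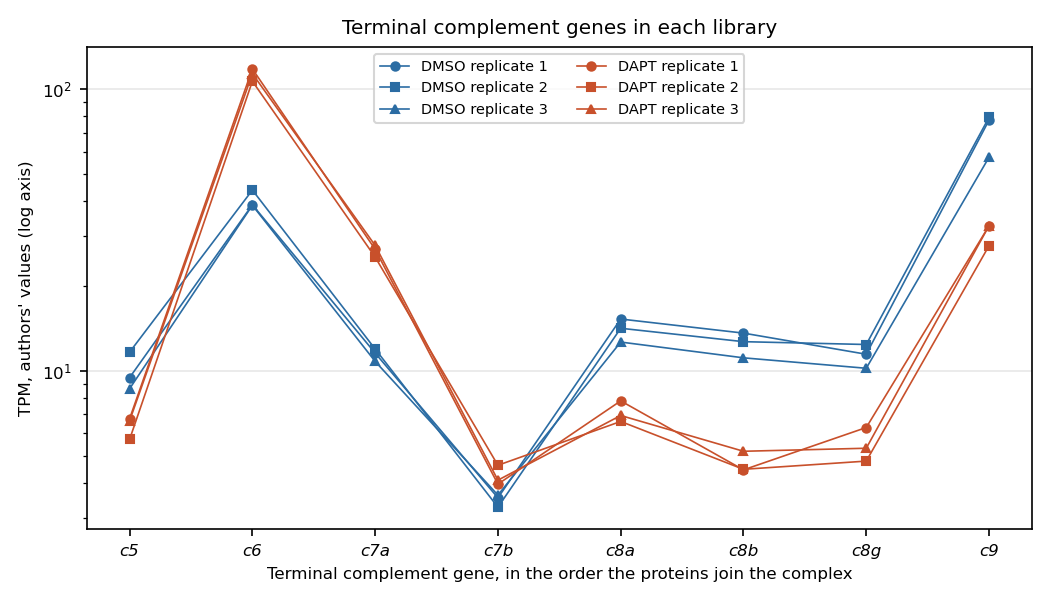
TPM by the authors (log axis) of the 8 terminal complement genes in each library, in the order in which the proteins join the complex, with 1 line per library. The DAPT lines lie above the DMSO lines at c6, c7a and c7b and below them at c5, c8a, c8b, c8g and c9.

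In the alternative pathway, which amplifies C3 cleavage, the factor D transcript fell, while that of factor B had a weakly called rise. The factor D gene cfd, for the protease that cleaves factor B, had 71.8, 69.6 and 59.9 CPM with DMSO and 29.8, 29.6 and 31.97 CPM with DAPT (-1.14 ± 0.08, adjusted p = 2.59e-07). The factor B gene cfb had 46.4, 47.2 and 35.4 CPM with DMSO and 50.8, 54.8 and 49.2 CPM with DAPT (0.27 ± 0.10, adjusted p = 0.0394). On CPM the groups were well separated for cfd and barely for cfb. On TPM those of cfb overlapped, at 32.75, 34.12 and 26.18 with DMSO and 32.92, 34.76 and 32.68 with DAPT. The rise of cfb was lost in 6 of 12 alternatives: with library totals alone (0.17, adjusted p = 0.13), with a filter of 5 CPM in 3 libraries (0.24, adjusted p = 0.0568), without DMSO replicate 3 (0.14, adjusted p = 0.0835) and without DAPT replicates 1, 2 or 3 (adjusted p = 0.0827, 0.139 and 0.0655; 0.0154 to 0.139 in its 12 alternatives). Of the regulators, factor H protects host surfaces, and its gene cfh had 31.3, 33.1 and 27.9 CPM with DMSO and 17.1, 17.5 and 16.2 CPM with DAPT (-0.86 ± 0.08, adjusted p = 3.82e-06), with counts not whole in any library. The gene cfi, for the protease that cuts C3b with factor H as a cofactor, had 47.5, 58.1 and 51.3 CPM with DMSO and 48.5, 43.3 and 45.8 CPM with DAPT (-0.19 ± 0.08, adjusted p = 0.0625). Its groups overlapped on CPM but not on TPM, at 36.77, 46.14 and 41.58 with DMSO and 34.46, 30.14 and 33.28 with DAPT. The gene cfi passed without DMSO replicate 1 (-0.25, adjusted p = 0.023, with 0.00976 to 0.248 in its 12 alternatives).

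Of 23 other complement genes tested 1 rose, 12 fell and 10 did not pass, with a median of -0.44 on the log2 scale. Falls were seen for the vitronectin genes vtna (-1.25 ± 0.10, adjusted p = 1.21e-06) and vtnb (-0.70 ± 0.09, adjusted p = 5.04e-05), whose product blocks pore insertion, for serping1, the inhibitor of the C1 proteases (-0.88 ± 0.12, adjusted p = 8.28e-05), and for the lectin gene colec11 (-0.81 ± 0.12, adjusted p = 0.000179). The factor H-like genes cfhl1 (-1.40 ± 0.18, adjusted p = 6.61e-05) and cfhl2 (-0.88 ± 0.13, adjusted p = 0.000142) fell as well, with counts that were not whole. The 1 gene that rose was c1qbp (0.34 ± 0.06, adjusted p = 0.000801), chosen after its values were seen, whose product is mainly a mitochondrial protein.

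The members were set beside lists of liver genes, since these genes are known from the liver. Of 19 hepatocyte markers tested, which hold no member, 14 fell, 1 rose and 4 did not pass, with a median log2 fold change of -0.93. Their summed level was 15740.0 to 17539 TPM with DMSO and 8998 to 9505 TPM with DAPT. None was at 0 in all libraries, and hp was listed at 0 in the DAPT libraries. Examples were the transferrin gene tfa (-1.19 ± 0.08, adjusted p = 1.91e-07), the vitamin D-binding protein gene gc (-1.88 ± 0.10, adjusted p = 6.56e-08) and apoa2 (-1.01 ± 0.07, adjusted p = 2.59e-07). Among the 14 falls ahsg1, chosen after its values were seen, had 48, 28 and 26 counts with DMSO and 5, 2 and 3 with DAPT. It passed the filter on low counts through the DMSO libraries only. The sums over the members moved in opposite directions on the 2 scales. The coagulation genes summed to 741 to 865 TPM with DMSO and 677 to 707 TPM with DAPT. On CPM they summed to 1166 to 1514 with DMSO and 1556 to 1653 with DAPT. CPM is not per length and is scaled with TMM factors, so the 2 scales differ in more than length. Without f8 the coagulation genes summed to 626 to 716 TPM with DMSO and 469 to 486 TPM with DAPT. Their CPM sums were then 677 to 795 and 570.3 to 591, lower with DAPT on both scales. Complement genes summed to 495 to 594 and 439.7 to 477 TPM, but to 703 to 884 and 897 to 940.0 CPM. Here c6, c4b and c7a averaged 70.8, 26.7 and 34.9 CPM with DMSO and 219.7, 117.7 and 90.7 CPM with DAPT. Since 14 of the 24 complement genes tested fell, the rise of the CPM sum was not that of most of them. Fewer liver cells, less RNA per liver cell and a different share of other tissues cannot be told apart in such bulk samples. The part of each in the members' values was not tested, and neither was the tissue that the markers' own transcripts came from. Members differed in where they lay relative to these markers. The fibrinogen genes had log2 fold changes of -0.57 to -0.43, nearer to 0 than the marker median, and the members nearest to it were masp2, f2, c8g, cfh, proca, c8a, c9, plg, c3b.1, c3b.2 and cfd, in that order, from -0.82 to -1.14. How the members differed from the markers was not tested.

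No transcript on a list of liver regulators passed as lower. Of 16 genes for liver transcription factors 7 rose, 0 fell and 9 did not pass (median on the log2 scale 0.20), among them cebpa (0.48 ± 0.07, adjusted p = 0.000241), cebpb (0.64 ± 0.07, adjusted p = 1.16e-05) and hnf4a (0.51 ± 0.11, adjusted p = 0.00281), which is also on the hepatocyte list. In mammals interleukin-6 raises fibrinogen and C3 transcripts in the liver through STAT3. Of 15 tested genes of that route and of the acute phase 8 rose, 3 fell and 4 did not pass, with a median of 0.20 on the log2 scale. The 15 log2 fold changes ranged from -4.09 to 4.20, and 3 of the rises and 2 of the falls were at least 2-fold. Among the 15, 1 passed the filter on low counts through the DAPT libraries only. The receptor subunit gene il6st (1.095 ± 0.07, adjusted p = 2.25e-07), jak1 (0.71 ± 0.05, adjusted p = 7.53e-07) and stat3 (1.05 ± 0.06, adjusted p = 5.04e-08) rose. The falls were those of the interleukin-6 receptor gene il6r (-0.68 ± 0.12, adjusted p = 0.000624), chosen after its values were seen, and of the pentraxin genes crp3 (-1.78 ± 0.13, adjusted p = 5.76e-07) and crp2. The gene crp2 had 138.71, 127.74 and 102.51 counts with DMSO and 4, 12.22 and 5 with DAPT and passed the filter on low counts through the DMSO libraries only. In the same libraries the fibrinogen genes and the C3 genes fell or did not pass. The part of the interleukin-6 route in their values was not tested, and neither were the cells its transcripts came from. Of 8 thrombocyte markers, for the cells that plug wounds in fish, 2 rose, 5 fell and 1 did not pass. Their median log2 fold change was -0.34. Their summed level, in which the most counted genes weigh most, was nevertheless higher with DAPT. It was 1408 to 1763 CPM with DMSO and 2193 to 2420 CPM with DAPT, so it was not the trend of most of these markers. On TPM the summed level was 339 to 410 with DMSO and 435 to 487 with DAPT.

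**Figure D4:**
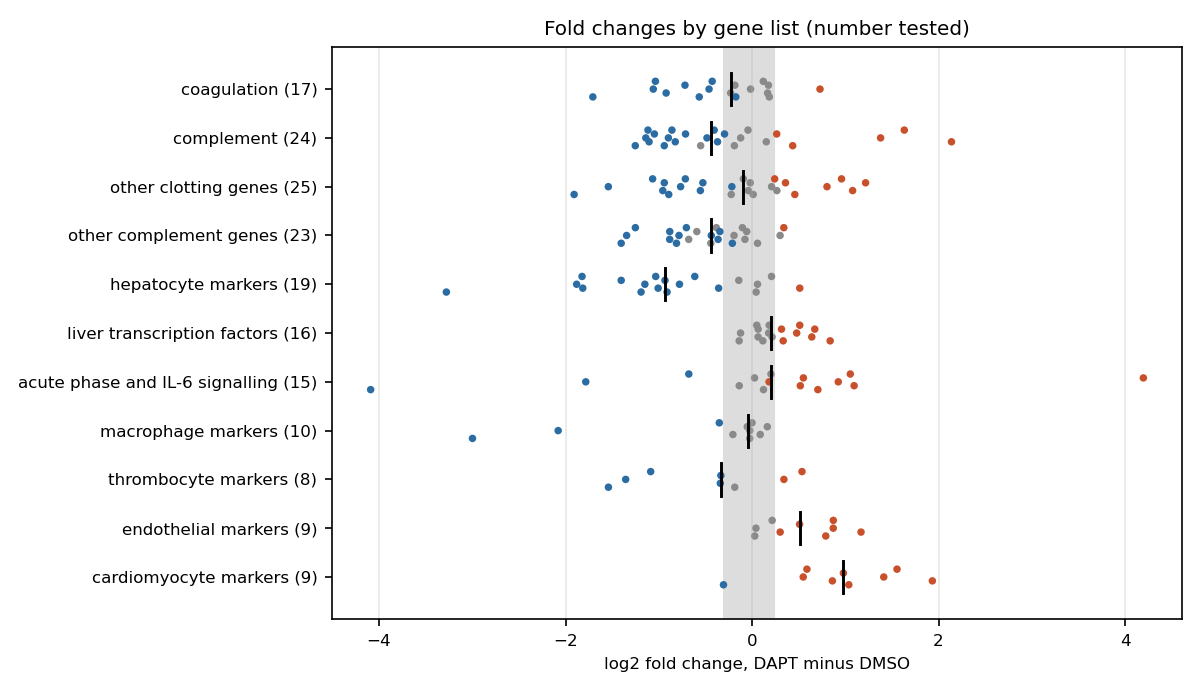
Log2 fold change (DAPT minus DMSO, horizontal axis) of each tested gene by list, red where it rose, blue where it fell and grey where it did not pass; black bars are list medians and the grey band spans the middle 50% of all genes, from -0.30 to 0.23. Coagulation and complement genes spread on both sides of the band, with medians between those of the hepatocyte markers and of all genes.

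Members also varied together within the DMSO group. DMSO replicate 3 was the lowest DMSO library in 16 of 17 coagulation and 19 of 24 complement genes, against 36.6% of all genes tested, and in 17 of 19 hepatocyte markers. It was also the lowest in 9 of 9 heart muscle and 9 of 9 endothelial markers. Leaving DMSO replicate 3 out left 1 coagulation gene higher and 11 lower, and 4 complement genes higher and 14 lower. In that fit 44.3% of all genes tested were called. The standard deviation of CPM was smaller over the DAPT libraries in 16 of 17 coagulation and 17 of 24 complement genes, against 61.6% of all genes tested. The gene f3b was the 1 coagulation gene with the opposite order, at 8.18 CPM over 3 DAPT and 3.48 CPM over 3 DMSO libraries, and c6 was among the 7 complement genes, at 9.02 and 5.201 CPM. In contrast fga had 0.501 CPM over 3 DAPT libraries and 9.54 CPM over 3 DMSO libraries. A standard deviation of CPM tends to be smaller at a lower level. Of the 41 members tested 23 fell, against 24.3% of all genes, so the share over all genes is not a like comparison. The low values of DMSO replicate 3 also widen the DMSO spread, so the smaller DAPT spread is not a separate observation.

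**Figure D5:**
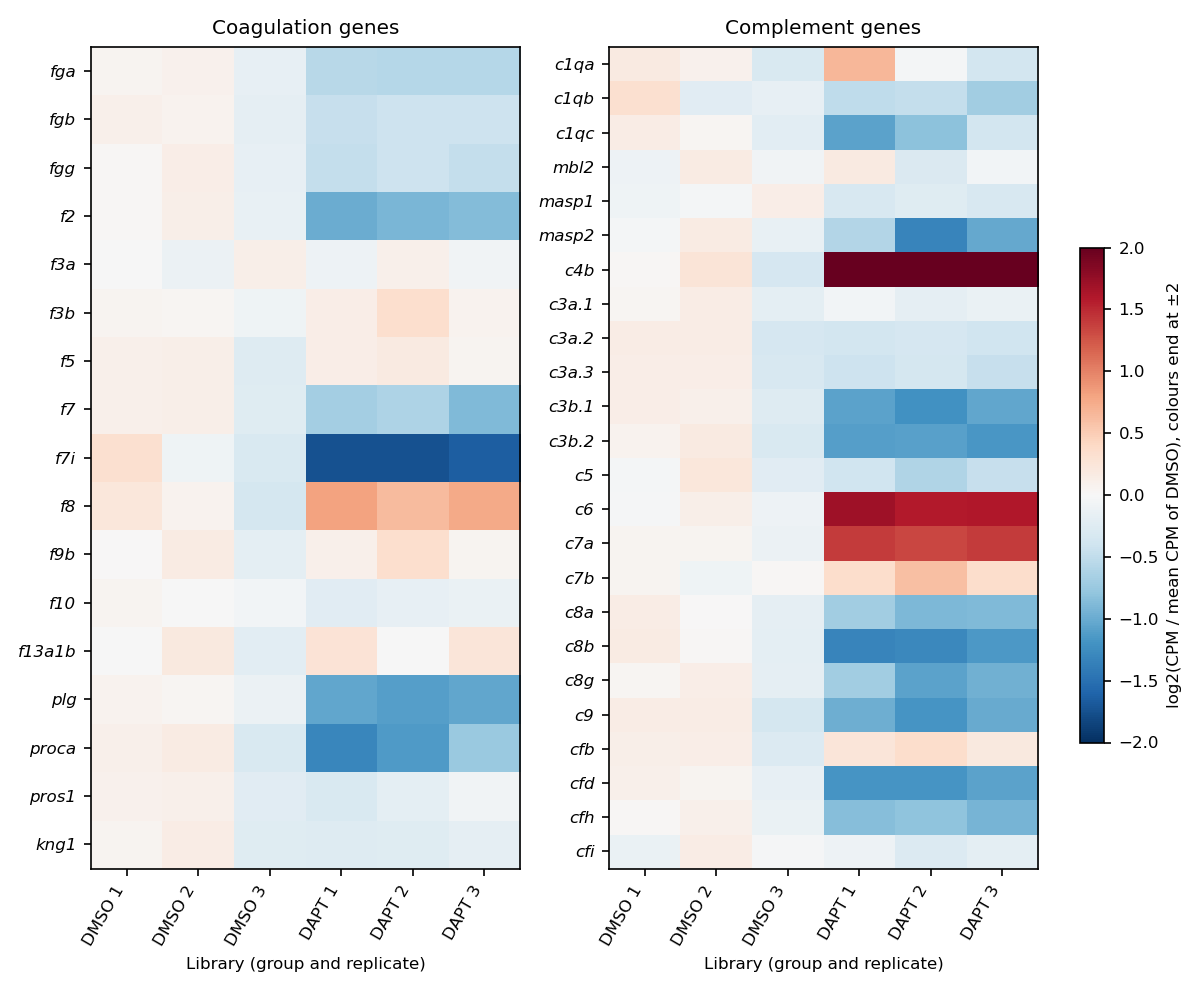
Log2 of CPM over the mean CPM of the 3 DMSO libraries, for each tested member (rows) in each library (columns), red above and blue below, with colours ending at ±2. The column of DMSO replicate 3 is pale blue in most rows, and the DAPT columns are red for c4b, c6, c7a and f8 and blue for f7i, plg, c8b and cfd.

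Several members lie side by side in the genome, by gene order in the RefSeq table of assembly GRCz12tu, in which all 43 were found. With no coding gene between them, f7, f7i and f10 form a run, and their log2 fold changes of -0.72, -1.71 and -0.17 differed in size. The adjacent genes c8a and c8b both fell, the adjacent genes c7b and c6 both rose, and c3b.1 and c3b.2 had nearly equal values. The adjacent genes c1qb, c1qc and c1qa, all with low counts, had -0.55, -0.71 and 0.15, so the signs differed within that run. The genes c3a.2 and c3a.3 are adjacent, at -0.37 and -0.41, and 3 coding genes lie between c3a.1 and c3a.2. The genes fgb and fga have 1 coding gene between them.

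By level per length, the order of the genes differed between the groups. With DMSO the highest coagulation transcripts were the gene listed as f8, with the doubt given above, at 142 ± 24.9 TPM, fgb at 112 ± 9.48 TPM and fgg at 95.1 ± 8.497 TPM (SD, n = 3). With DAPT they were f8 at 213 ± 15.8 TPM, f3b at 91.4 ± 7.69 TPM and fgb at 75.03 ± 2.05 TPM. With DMSO the ranges of f8 and fgb overlapped, as did those of fgb and fgg, whereas with DAPT the ranges of f8, f3b and fgb did not overlap. Among complement genes cfd led with DMSO at 142 ± 10.6 TPM, followed by c9 at 71.5 ± 12.3 TPM and c3a.1 at 50.7 ± 5.46 TPM. With DAPT c6, whose counts were not whole, led at 113 ± 5.66 TPM, followed by cfd at 57.5 ± 3.33 TPM and c3a.1 at 41.9 ± 2.24 TPM. The ranges of these complement genes did not overlap within a group.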

How the data were processed

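Per the file headers the deposited table gives, for each of 25920 genes, read counts, TPM and FPKM in each of 6 libraries and the authors' group means. Since 15.2 to 16% of the read counts deposited are not whole, they were read as estimated counts that the authors had not scaled. TPM and FPKM were computed by the authors, and FPKM and the group means were not used. TPM served to compare levels between genes, and also to set the groups side by side for some genes and for summed levels. It carries no TMM factors, and with library totals alone the median over all genes was -0.10 on the log2 scale. Group differences on TPM may thus lean towards falls. The submitters' processing notes, which assign no roles, name featureCounts 1.6.0, STAR 2.7.1a, edgeR and the genome build GRCz11 for the deposited values. The annotation, strand setting and counting rules are not given in the sources used here.

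Counts were rounded and tested with edgeR 4.0.16 (R 4.3.3): genes were filtered by filterByExpr, libraries were scaled by TMM, and DAPT was set against DMSO by the quasi-likelihood F test, with 4 residual degrees of freedom. This left 22092 genes, with adjustment by Benjamini and Hochberg at 0.05. The standard error is the log2 fold change divided by the square root of F. The biological coefficient of variation was 6.82%. The procedure was tested on simulated data. Alternatives were DESeq2 1.42.0, library totals alone, no filter on low counts, 5 CPM in 3 libraries, unrounded counts, a replicate block, and each library left out in turn. The members and lists were chosen with earlier results of these data known, so no test was made over a list. Values are given for every member, and in other lists for up to 6 genes with the smallest p; other genes are said to have been chosen after their values were seen. Replicate libraries differed by more than counting noise (chi-square per gene 1.92 to 10.3).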

Additional observations from a re-analysis of the deposited data

How the results depend on the processing

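Of 41 members tested, 27 kept their direction and their side of the threshold in every alternative run, and of the 29 called members 24 did. The 5 that did not were f10, c1qc, masp1, c3a.2 and cfb, whose values are given above. Leaving out each library in turn gave 1 to 2 coagulation genes higher and 8 to 11 lower, and 4 to 5 complement genes higher and 12 to 14 lower. Of all genes tested 37.5 to 45.3% were called in these fits, against 46.6% in the main fit. The 2 coagulation genes f8 and f3b were higher with the replicate block (f3b 0.18, adjusted p = 0.0437), and f10, c1qc and masp1 no longer passed (adjusted p = 0.0537, 0.0768 and 0.0534). Without DMSO replicate 2 the 2 were f8 and f13a1b, and without DAPT replicate 3 they were f8 and f3b. Deviations from the group means of same-numbered libraries correlated over genes at r = 0.008, -0.071 and -0.03, and those of other pairs at -0.037 to 0.061. Such values over all genes cannot show whether same-numbered libraries shared a clutch or batch. Values that did not pass changed sign for f3a without DMSO replicate 3 (0.048) and DAPT replicate 1 (0.025) or 3 (0.011), for mbl2 without DMSO replicate 2 (0.045) or DAPT replicate 2 (0.068), and for c1qa without DAPT replicate 1 (-0.184). Over the fits that left out a library f3a ranged from -0.078 to 0.048, mbl2 from -0.168 to 0.068 and c1qa from -0.184 to 0.360. The causes were not tested. With library totals alone kng1, pros1 and cfi also passed as lower (adjusted p = 0.00607, 0.024 and 0.00976), and with 5 CPM in 3 libraries kng1 and cfi did (0.032 and 0.0367). Without a filter on low counts c1qc did not pass (adjusted p = 0.0574). Depth limits f9a, c1r and the C1q genes, which had under 30 counts in each library.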

Other observations

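Of 15 intestine and pancreas genes 5 rose and 10 fell, with a median of -0.72 on the log2 scale. The 6 with the smallest p were the pancreatic enzyme genes amy2a (-3.41 ± 0.10, adjusted p = 3.49e-10), ela2l (-3.41 ± 0.11, adjusted p = 8.7e-10), ela2 (-2.91 ± 0.12, adjusted p = 7.71e-09), cpa1 (-2.69 ± 0.11, adjusted p = 7.77e-09) and ctrb1 (-1.21 ± 0.08, adjusted p = 2.58e-07), which fell, and the intestinal villin gene vil1 (1.04 ± 0.06, adjusted p = 1.25e-07), which rose, all by edgeR's quasi-likelihood test.

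Among 9 neutrophil genes there were 3 rises and 4 falls, and the median was -0.19 on the log2 scale. The lysozyme gene lyz (-0.78 ± 0.08, adjusted p = 1.22e-05) and lect2l (-0.97 ± 0.09, adjusted p = 4.81e-06) fell, whereas the granule proteoglycan gene srgn (0.75 ± 0.07, adjusted p = 3.93e-06) and the oxidase subunit gene cybb (0.51 ± 0.08, adjusted p = 0.00023) rose.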
